A study of Mus musculus with 6 samples.

Results

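The comparison described here is the step from lymphoid-primed multipotent progenitors (LMPP) to common lymphoid progenitors (CLP) in mouse fetal liver. It rests on 4 of the 6 arrays of the series, chosen by their labels: 1 LMPP and 1 CLP array from wild type embryos, and 1 of each from embryos labelled Satb1-null. The embryos were of stage E18.5 with a C57BL6/J background, their livers were the tissue sorted, and the wild type embryos were littermates of the null ones. Cells sorted as LMPP lacked lineage markers, had high Kit and Sca-1 and carried Flt3. Cells sorted as CLP lacked lineage markers too, had low Kit and low Sca-1 and carried the interleukin 7 receptor. Both sorts are described in the labels as enriched, not pure. How Satb1 was disrupted, how many embryos were pooled and whether the sorts of 1 genotype shared embryos are not given in the sources used here. Each array therefore stands for 1 sample, and the 2 genotypes serve as 2 repeats of the same population step.

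LMPP are among the first blood progenitors in which the erythroid and megakaryocyte fates are largely closed, while the lymphoid and the granulocyte and monocyte fates are still open. CLP are their descendants and give rise chiefly to B cells, T cells, natural killer cells and innate lymphoid cells. On the way they take up signals through the interleukin 7 receptor, lower the stem cell programme built on Hox and Meis factors, and start to express the genes that rearrange and display antigen receptors. Satb1 is a chromatin organiser best known from thymocytes.

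Both sorts were set against the antigens used to obtain them. Flt3, the cytokine receptor that marks LMPP, stood at 3.21 on the wild type LMPP array, 0.85 on wild type CLP, 3.32 on null LMPP and 1.78 on null CLP, as log2 levels relative to the 75th percentile of each array. It was lower on both CLP arrays, by 2.36 and 1.54. Il7r, whose protein was the positive marker of the CLP sort, had levels of -0.51, 1.61, 0.12 and 1.55 in the same order, so that both CLP arrays lay above both LMPP arrays. Kit, the receptor for stem cell factor, stood at 4.56, 2.79, 4.38 and 3.74, and Ly6a, which encodes Sca-1, at 1.12, 0.21, 0.14 and -0.50. The CLP array was the lower in each pair for both, although the Kit difference passed 2-fold in the wild type pair alone and the Ly6a difference in neither. Satb1 itself stood at 2.0, 0.71, 1.96 and 0.65 on its single probe, which is 2.5-fold lower in CLP on average (-1.29 and -1.31). The levels on the arrays labelled null were close to those on the wild type arrays. Where the probe lies relative to the disrupted part of the gene is not given, so Satb1 does not check the genotype labels here.

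Dntt, a further defining gene of CLP that encodes the enzyme adding bases at rearranging receptor genes, stood at -2.21, -2.68, -2.70 and -3.49 and was not higher in CLP in either pair. Rag1, the recombinase subunit that cuts receptor genes, stood at -2.48, -1.88, -2.84 and 0.53 and was higher in CLP in both pairs (0.61 and 3.37), past 2-fold in the null pair alone. Its other, dimmer probe passed 2-fold in both pairs (1.54 and at least 2.93). On the other side, the 4 defining erythroid markers (Hba-a1, Alas2, Slc4a1 and Klf1) and the 5 of granulocytes and monocytes (Mpo, Elane, Ctsg, Prtn3 and Ms4a3) were all at least 2-fold higher in CLP in both pairs. The summed erythroid markers stood at 17.2 and 699 on the wild type LMPP and CLP arrays and at 92.4 and 752 on the null ones, on a linear scale where 1 is the array's 75th percentile. The granulocyte and monocyte sum went from 175 to 603 and from 194 to 553. The CLP sum (Il7r, Dntt and Rag1) went from 1.09 to 3.47 and from 1.38 to 4.46. The sum over 3 LMPP markers (Flt3, Kit and Ly6a) went from 35.1 to 9.86 and from 32.0 to 17.5. The arrays labelled CLP thus held more signal of erythroid and of granulocyte and monocyte markers than the LMPP arrays, against what the label names, and the part this has in any difference below was not tested. In sorted bulk RNA, fewer cells of a type and less RNA per cell cannot be told apart.

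**Figure D1:**
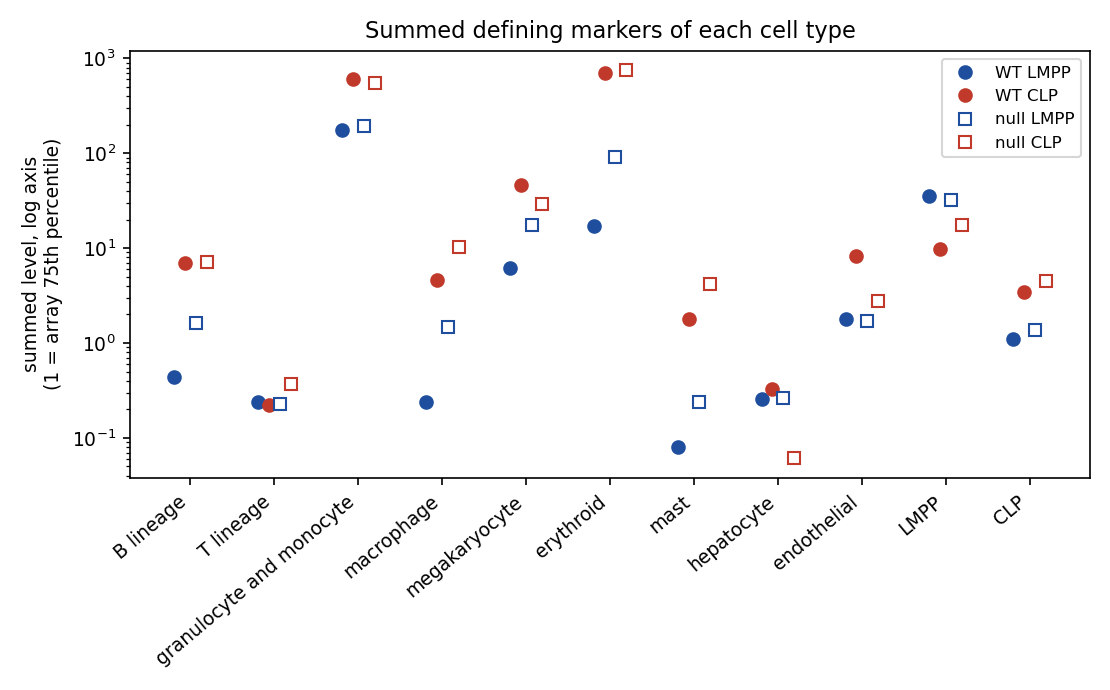
Summed linear level (log axis, 1 is the array's 75th percentile) of the defining markers of each cell type on the 4 arrays, blue for LMPP, red for CLP, filled for wild type and open squares for Satb1-null. The erythroid sum is 699 and 752 on the CLP arrays and 17.2 and 92.4 on the LMPP arrays, while the T lineage sum stays between 0.222 and 0.374.

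The upstream sequences of 4 genes that separate the populations are shown. Of these, 3 belong to the B lineage programme that CLP are known for, and the fourth to the stem cell programme that CLP leave. The genes were picked from members of the gene lists below that were past 2-fold in both pairs and held a searched motif upstream. Each sequence shown therefore holds a match by choice. Each is the 250 bases before the annotated start, from RefSeq (GRCm38.p6), written 5′ to 3′ on the strand of the gene. Capitals mark matches on either strand to the core motif of the B cell factor EBF (CCCNNGGG), the E box CACCTG bound by E proteins, or the octamer ATGCAAAT. Vpreb1 and Vpreb3 encode surrogate light chain and related chains of the pre-B receptor, and Spib encodes an Ets factor of B cells and plasmacytoid dendritic cells. Hlf encodes a transcription factor of stem cells. The regions are chr16:16869256-16869505 (minus strand) for Vpreb1, chr10:75948050-75948299 (plus strand) for Vpreb3, chr7:44532072-44532321 (minus strand) for Spib and chr11:90390918-90391167 (minus strand) for Hlf.
Vpreb1: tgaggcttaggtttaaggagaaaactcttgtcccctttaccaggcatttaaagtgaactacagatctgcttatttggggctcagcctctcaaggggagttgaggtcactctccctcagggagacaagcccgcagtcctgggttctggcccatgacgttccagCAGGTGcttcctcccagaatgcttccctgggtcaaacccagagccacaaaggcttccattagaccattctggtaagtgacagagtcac
Vpreb3: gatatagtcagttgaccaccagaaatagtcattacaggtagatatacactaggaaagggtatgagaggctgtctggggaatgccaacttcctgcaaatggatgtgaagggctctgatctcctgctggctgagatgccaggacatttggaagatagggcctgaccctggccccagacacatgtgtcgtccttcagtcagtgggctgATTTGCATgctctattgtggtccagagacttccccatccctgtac
Spib: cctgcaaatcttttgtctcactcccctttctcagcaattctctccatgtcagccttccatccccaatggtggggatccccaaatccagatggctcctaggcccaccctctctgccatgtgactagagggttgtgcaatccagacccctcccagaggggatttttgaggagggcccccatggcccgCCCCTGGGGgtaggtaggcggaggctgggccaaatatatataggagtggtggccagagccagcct
Hlf: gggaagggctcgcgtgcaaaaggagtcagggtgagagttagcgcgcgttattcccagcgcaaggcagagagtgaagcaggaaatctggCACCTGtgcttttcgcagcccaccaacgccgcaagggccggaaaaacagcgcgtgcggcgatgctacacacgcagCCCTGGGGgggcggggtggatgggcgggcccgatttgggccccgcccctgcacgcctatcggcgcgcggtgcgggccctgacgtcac

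The E box of Vpreb1 begins 88 bases before the start, and the octamer of Vpreb3 begins 45 bases before it. Spib holds a pair of overlapping EBF cores that begin 65 and 64 bases upstream, and Hlf holds an EBF core and an E box that begin 87 and 162 bases upstream. Among 13095 promoters of the genes compared in both pairs, 15.38% held the EBF core, 15.81% the E box and 1.22% the octamer. Among 1093 promoters of genes at least 2-fold higher in CLP in both pairs the shares were 18.66%, 19.4% and 1.74%, and among 1000 promoters of genes lower in both they were 15.2%, 15.3% and 1.5%. A GATA motif (AGATAA) and a CACCC box (CCACACCC), both searched after the erythroid genes had been seen, were held by 8.78% and 5.22% of the higher group, 7.4% and 3.1% of the lower group and 6.48% and 3.57% of all promoters compared. The median GC content was 58.4%, 58.0% and 59.2% in these groups. A match is a run of letters and not a measured binding site.

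Genes past 2-fold in each pair were counted first, and then those that repeated in both. A gene was compared where it was well above background on the brighter array of a pair, and a difference of 1 (2-fold) was the threshold. In the wild type pair 1994 of 13657 genes were higher in CLP (14.6%) and 2431 were lower (17.8%). In the null pair 2001 of 13608 were higher (14.7%) and 1974 lower (14.5%). With 1 array a group, neither pair has a test. Of 12866 genes compared in both pairs, 1064 were higher in CLP in both (8.27%), 967 were lower in both (7.52%) and 175 passed 2-fold in opposite ways (1.36%). A further 3313 passed in 1 pair only. These percentages are the background against which the counts of each gene list below are to be read. With median centring, which moved the median over all genes from -0.07 to 0.16 in the wild type pair and from 0.0029 to 0.18 in the null pair, 1375 were higher and 737 lower in both, so that the share higher among them was 65.1% in place of 52.39%.

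Shares that repeated were taken over the genes compared in both pairs, not over the totals of each pair. Of 1841 such genes higher in CLP in wild type, 57.79% were also higher in the null pair. Of 1826 higher in the null pair, 58.27% were higher in wild type. For genes lower in CLP (2319 in wild type and 1739 in null) the shares were 41.7% and 55.61%. Across the 11204 genes well above background on all 4 arrays, the 2 differences had a Pearson correlation of 0.66 and a Spearman correlation of 0.56, and 69.33% had the same sign. The pairs share no array, but they share the slide, and genes are not independent replicates. The genes compared in both pairs were also split by mean level into 4 groups of equal size. In the dimmest group 8.52% of wild type differences past 2-fold passed it the opposite way in null, against 0.37% in the brightest group. The share that repeated was 49.54%, 44.52%, 47.3% and 59.41% from the dimmest group to the brightest, and so did not follow the level step by step. The differences of the 2 pairs had a median SD of 0.34 per gene, and the median error that the scanner software gives for such a difference was 0.205.

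**Figure D2:**
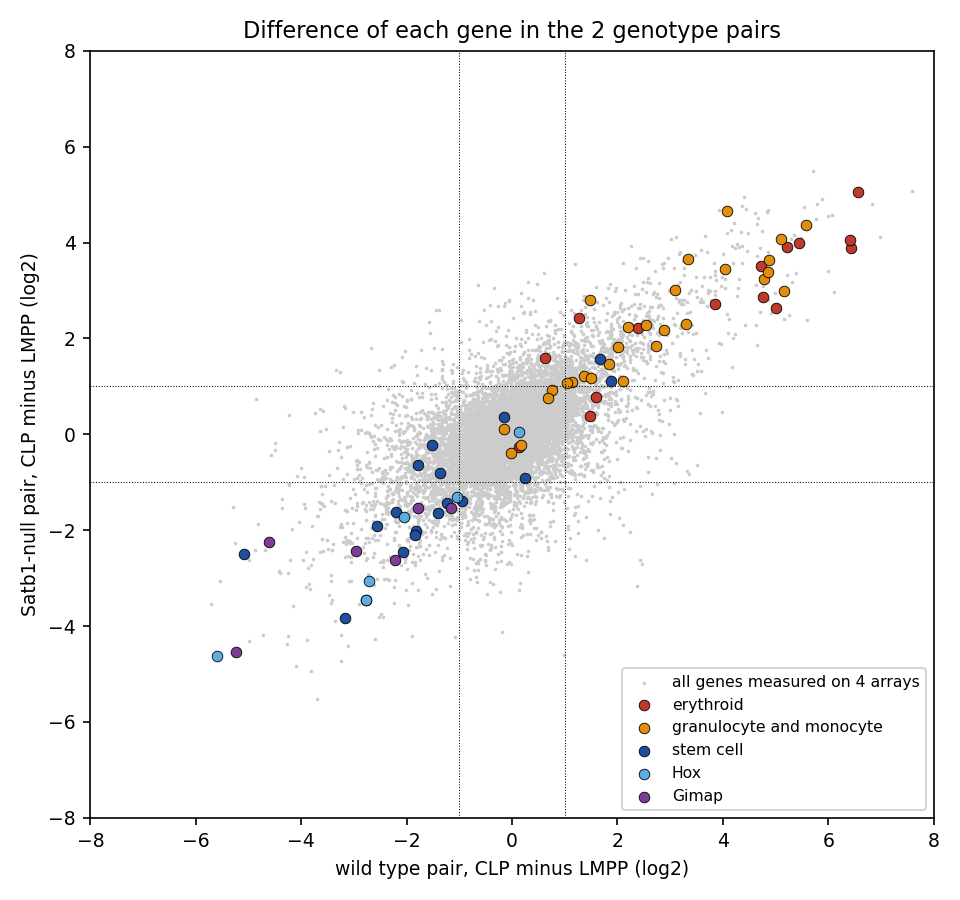
CLP minus LMPP (log2) in the wild type pair (x axis) and the Satb1-null pair (y axis) for the 11204 genes measured on all 4 arrays, with members of 5 lists in colour and dotted lines at 2-fold. Erythroid and granulocyte genes lie mostly in the upper right, and stem cell, Hox and Gimap genes mostly in the lower left.

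A limma fit over the 4 arrays, with genotype as a block, tested the difference common to both pairs. At a Benjamini-Hochberg adjusted p under 0.05 it called 186 of 13138 genes higher in CLP (1.42%) and 81 lower (0.617%), all of them past 2-fold in both pairs. Of these 267 calls, 117 had a bound in either pair, so part of their values were not measured above background. The smallest adjusted p was 0.0486 and was shared by 248 genes, so nearly all calls stand just inside the threshold together. At an unadjusted p under 0.05 there were 3201 genes. Without the wild type LMPP array or without the null LMPP array (in the fit over the other 5 of the 6 arrays), limma called 0 genes, at smallest adjusted p of 0.148 and 0.114 and with 2238 and 2447 genes at an unadjusted p under 0.05. Without the wild type CLP array it called 674 higher and 598 lower, and without the null CLP array 941 and 991. The share higher among limma calls was 69.66%, and it was 80.67% with median centring and 59.39% with the normexp background correction. On simulated data of this size the test was not well calibrated, with too many false calls under one model of the gene variances and no calls under another. A limma call is therefore given below as a mark of a large difference that was alike in these 2 pairs, and no more. In the text, "called" refers to this fit.

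Genes of the stem cell programme were lower in CLP. Of 24 stem cell genes compared, 15 were at least 2-fold lower in both pairs and 2 were higher, with a median difference of -1.72 beside -0.05 over all genes compared, and limma called 4. Procr, the endothelial protein C receptor of stem cells, stood at 2.31 and 1.87 on the LMPP arrays and at -3.57 and -4.43 on the CLP arrays, the last not well above background. It was at least 62.7-fold lower (limma adjusted p = 0.0486). Meis1, the cofactor of Hox proteins, went from 3.04 to 0.27 in the wild type pair and from 3.21 to -0.24 in the null pair, and was 8.6-fold lower with a limma adjusted p of 0.0492. Mecom, a zinc finger factor needed for stem cell maintenance, was not well above background on either CLP array, a difference of at least -3.37 and -3.53. Hlf was lower less evenly in the pairs, from 4.81 to -0.29 and from 4.65 to 2.16, and was not called (limma adjusted p = 0.086). Robo4 (-3.18 and -3.84), Esam (-2.07 and -2.46) and Cd34 (-1.82 and -2.02), which encode surface proteins that stem cells share with endothelium, were lower in both pairs, Robo4 with a call. The 2 exceptions on the list were Tal1 (1.67 and 1.57) and Gfi1b (1.88 and 1.12), factors that also act in erythroid and megakaryocyte cells. Gata2 did not pass 2-fold in either pair (-0.15 and 0.36).

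Hox genes were lower too. Of 12 Hox genes and cofactors compared, 9 were lower in both pairs and none higher, with a median of -2.39, and limma called 3 (Hoxa9, Hoxa5 and Meis1). Hoxa9, the most studied Hox gene of blood progenitors, had the lowest mean difference of all genes measured on 4 arrays. Its level was 2.36 on wild type LMPP, -3.24 on wild type CLP, 1.87 on null LMPP and -2.75 on null CLP, a difference of -5.11 ± 0.69 (SD, n = 2 pairs) or 34.5-fold. Hoxa3 (-3.49 and at least -5.97), Hoxa5 (-2.71 and -3.07), Hoxa6 (at least -4.39 and -3.04), Hoxa7 (-2.05 and -1.73) and Hoxa10 (at least -4.50 and -3.04) went the same way across the Hoxa cluster. A further 8 of the 20 listed genes were not compared, since they were not well above background on the brighter array of at least 1 pair.

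The group of Gimap GTPases, which act in lymphocyte survival, was lower as well, with 6 of 7 compared members below the threshold in both pairs and a median of -2.42. Gimap8 stood at 5.06 and 4.83 on the LMPP arrays and at -0.17 and 0.30 on the CLP arrays, which is 29.5-fold lower with a limma adjusted p of 0.0486. Gimap6 (-2.97 and -2.43), Gimap1 (-4.62 and -2.25), Gimap5 (-2.22 and -2.61), Gimap9 (-1.79 and -1.53) and Gimap4 (-1.16 and -1.54) were lower without a call. Of the 6, Gimap5 and Gimap9 no longer passed 2-fold in both pairs with normexp (means of -1.05 and -0.82), and Gimap4 did not with median centring (-1.15) and with the mean over probes. The other Gimap4 probes gave -0.08 and -0.29 in the wild type pair. Gimap members resemble each other in sequence, and how far their probes cross-react was not tested.

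**Figure D3:**
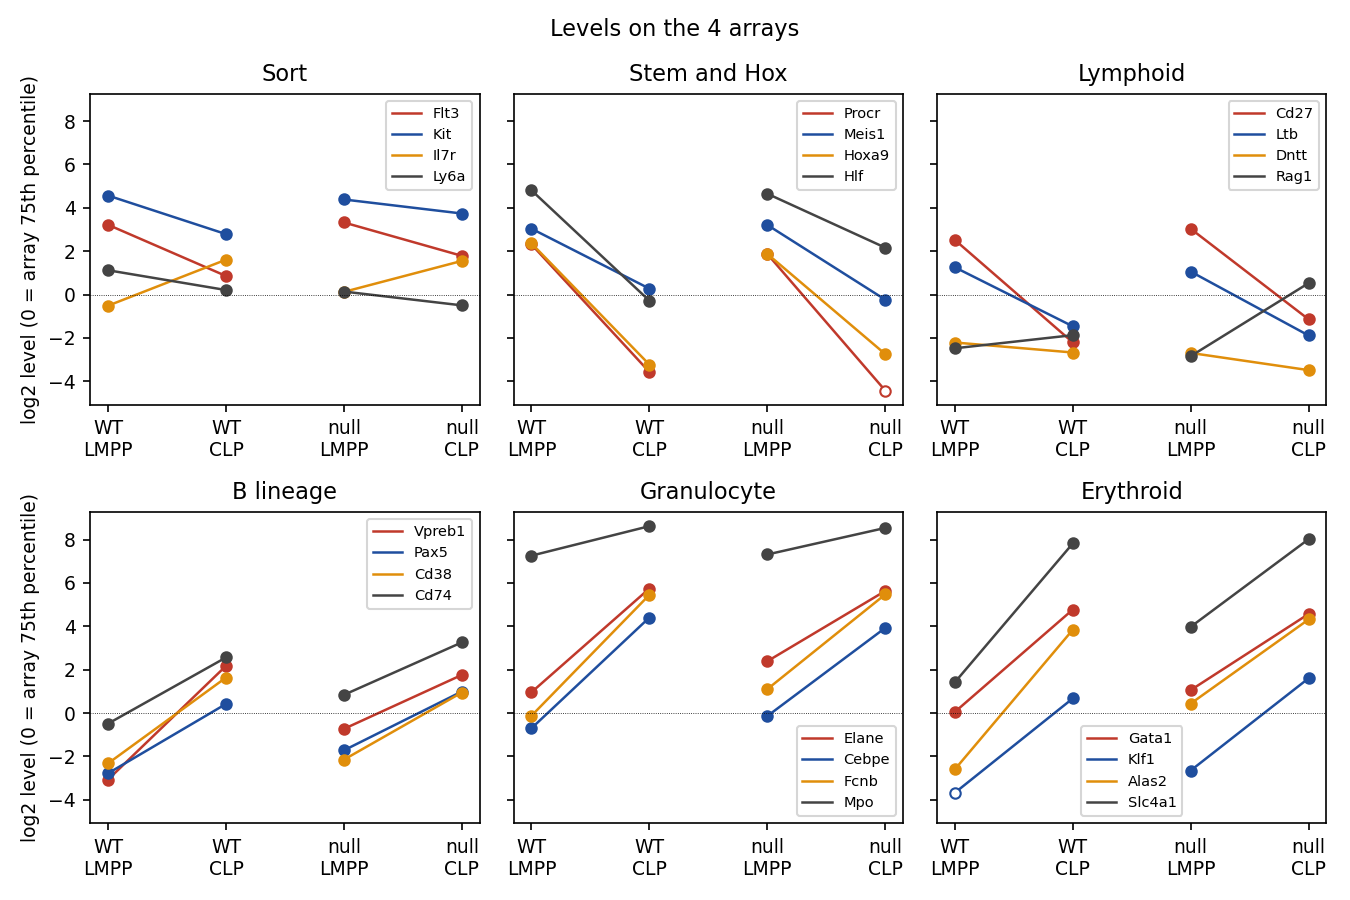
Log2 level (0 is the array's 75th percentile) of 24 genes on the 4 arrays, with a line joining LMPP and CLP of each genotype and open points where the gene was not well above background. Il7r is higher and Flt3 and Kit are lower on CLP in both pairs, stem cell and Hox genes are lower, B lineage, granulocyte and erythroid genes are higher, and Dntt is not.

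Early lymphoid genes had no common direction. Of 24 compared, 4 were higher in both pairs, 7 were lower and 6 passed in neither, with a median of -0.62. Cd27, a receptor of the tumour necrosis factor family that is used to define early lymphoid progenitors, stood at 2.52 and 3.03 on the LMPP arrays and at -2.21 and -1.15 on the CLP arrays, 21.9-fold lower (limma adjusted p = 0.0486). Ltb, a lymphotoxin subunit, went from 1.25 to -1.47 and from 1.06 to -1.89 and was also called. Sox4 (-2.13 and -2.34), Lax1 (-2.93 and -1.43), Cnn3 (-1.71 and -1.49) and Mef2c (-1.49 and -1.08) were lower without a call. The 4 higher genes were Il7r, the chemokine receptor Ccr7 (at least 2.58 and 2.56), the Ikaros family factor Ikzf3 (1.85 and 1.44) and the adaptor Blnk (at least 1.29 and 1.72). Ikzf1, a factor required for lymphoid fate, differed by -0.91 and -0.71 and passed in neither pair, and its other probe gave 0.48 and 0.86. By the brightest probe of each gene, none of the 13 genes of the recombinase and of end joining passed 2-fold in both pairs, and their median was -0.45. Another probe passed 2-fold in both pairs for Rag1, higher as given above, and for Trp53bp1, lower (-1.79 and -1.67). Rag2, the partner of Rag1, differed by -1.88 in wild type and 0.16 in null.

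B lineage genes were higher in part. Of 11 pre-B receptor genes compared, 6 were higher in both pairs and none lower, with a median of 1.51. That median rests on genes near background, since the 6 members measured on all 4 arrays had a median of -0.0034. Vpreb1 went from -3.07 to 2.17 in the wild type pair and from -0.73 to 1.76 in the null pair, differences of 5.24 and 2.49 within the pairs. Vpreb3 (at least 2.86 and 3.24, limma adjusted p = 0.0486), Vpreb2 (at least 2.17 and 2.38) and Igll1 (at least 3.27, and 1.42) were higher, and only Vpreb3 of the 6 was called. The signalling genes Syk, Btk and Plcg2, which other lineages express too, did not pass in either pair, and neither did Cd79b.

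Among 14 B lineage transcription factors, 5 were higher and 2 lower in both pairs. The list median was 0.41 (-0.18 in the wild type pair alone, and -0.46 for members measured on all 4 arrays), so it had no settled direction. Spib was not well above background on either LMPP array and reached 0.83 and 1.49 on the CLP arrays, which makes it at least 33.3-fold higher (limma adjusted p = 0.0486). Pax5, the factor that commits cells to the B lineage, went from -2.78 to 0.42 and from -1.72 to 0.99 and was called too. Pou2af1, the octamer coactivator, went from below background to 1.30 in wild type and from -0.01 to 3.18 in null. Ebf1, which acts upstream of Pax5, was well above background on the null CLP array alone and was not compared in both pairs. Foxo1, which drives Il7r and recombinase genes, was lower by its brighter probe (-1.41 and -1.39), while its other probe passed 2-fold in neither pair (-0.64 and -0.53). Sox4 was lower as well. Among other B lineage genes Cd38 (3.96 and 3.10, called), Cd74 (3.05 and 2.42), Cd24a (2.29 and 1.73) and Bst1 (at least 1.41, and 1.72) were higher in both pairs, 4 of 9 compared.

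T lineage, natural killer and innate lymphoid genes gave a mixed picture. Of 18 T lineage and Notch genes compared, 3 were higher and 2 lower in both pairs (median -0.29). Tcf7, which encodes the T cell factor TCF-1, went from -2.55 to 0.10 and from -1.94 to 0.72 (limma adjusted p = 0.0497), and Thy1 (2.28 and 2.08) and Cd7 (1.66 and 1.12) were higher. Nrarp, a target of Notch, was lower (at least -4.33, and -2.68). The defining T genes Bcl11b and Cd3g were not well above background on any of the 4 arrays. Of 13 natural killer and innate lymphoid genes 4 were higher and none lower. Id2, an inhibitor of E proteins that innate lymphoid cells need, went from -0.55 to 2.62 and from -0.22 to 2.53 and was called, as was Il18r1 (at least 3.33 and 3.19). Zbtb16 (1.34 and 2.81) and Nkg7 (2.23 and 1.58) were higher without a call. Id2 is also expressed in dendritic and myeloid cells, whose genes are described next.

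Genes of granulocytes and monocytes were higher in CLP. Of 29 compared, 24 were higher in both pairs and none lower, with a median of 2.22, and limma called 7. Cebpe, which drives granulocyte maturation, went from -0.70 to 4.40 and from -0.14 to 3.93 and was 24.0-fold higher (limma adjusted p = 0.0486). Fcnb went from -0.13 to 5.45 and from 1.1 to 5.47, and the granule genes Ltf (4.09 and 4.66), Camp (4.88 and 3.63) and Ngp (4.05 and 3.44) were called with it. Elane, the neutrophil elastase, went from 0.96 to 5.74 and from 2.39 to 5.63, and S100a8 from 3.0 to 7.85 and from 4.14 to 7.54, both just outside the threshold (limma adjusted p = 0.0523 and 0.0507). By the brightest probe, 5 members passed in neither pair: Csf1r (-0.16 and 0.10), Csf3r (0.16 and -0.21), Itgam (-0.01 and -0.40), Cebpa (0.76 and 0.93) and Spi1 (0.69 and 0.76). Other probes of Csf1r stood at -1.19 and 1.27 and at 0.43 and 0.64. Both other probes of Itgam were past 2-fold higher in both pairs (3.84 and 3.11, and 3.58 and 1.24). Other receptors and regulators on the list were higher in both, among them Csf2ra (2.74 and 1.85), Irf8 (1.83 and 1.46), Cebpb (1.13 and 1.08) and Gfi1 (1.04 and 1.08). On all 4 arrays the LMPP levels of Elane, Fcnb and S100a8 lay below the CLP levels with a gap over 3.

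Eosinophil, basophil and mast cell genes were higher as well. Of 10 compared, 7 were higher in both pairs and none lower, with a median of 4.34 and 4 calls. Il1rl1, the receptor of interleukin 33, stood at -3.82 and -1.99 on the LMPP arrays and at 3.01 and 2.80 on the CLP arrays, 56.1-fold higher (limma adjusted p = 0.0486). Prss34, a basophil protease, was at least 72.1-fold higher (at least 6.67, and 5.68), and Hdc, which makes histamine, went from -1.04 to 3.17 and from -0.56 to 3.85. Cpa3, a mast cell protease, was at least 25.8-fold higher and was called. The eosinophil granule genes Epx (6.99 and 4.12), Prg2 (5.39 and 3.36), Prg3 (5.54 and 4.74) and Ear6 (6.08 and 4.58) were all higher. Ear genes are near copies of each other, so the signal of Ear6 may be shared with its relatives.

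Erythroid genes were higher in CLP in both pairs. Of 18 compared, 14 were higher in both pairs and none lower, with a median of 3.82 and 7 calls. Gata1, the master regulator of the lineage, stood at 0.05 and 1.06 on the LMPP arrays and at 4.77 and 4.57 on the CLP arrays, 17.4-fold higher (limma adjusted p = 0.0486). Klf1, which acts with it, was 19.7-fold higher, with its own undetected signal used for the wild type LMPP array. Slc4a1, the anion exchanger of red cells, went from 1.42 to 7.82 in the wild type pair and from 3.97 to 8.02 in the null pair, and Alas2, the first enzyme of haem synthesis, at -2.60, 3.84, 0.43 and 4.32. For both the CLP levels were alike in the genotypes while the null LMPP array lay above the wild type one, by which the null difference was smaller. Ank1 (5.45 and 3.99) and Rhd (5.22 and 3.90) were called. Globin genes share sequence with their copies, so Hba-a1 (5.0 and 2.64) may stand for more than 1 gene.

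Of 17 megakaryocyte genes compared, 6 were higher in both pairs and 1 (Gp6) passed in opposite ways. Gp1ba, a chain of the platelet receptor for von Willebrand factor, went from -1.83 to 1.28 and from -1.65 to 1.19 and was the single call. Itga2b (3.66 and 0.87), Pf4 (2.89 and 0.72) and Vwf (3.98 and 0.46) were past 2-fold in the wild type pair alone, and each stood higher on the null LMPP array than on the wild type one. The list median was 1.88 in wild type and 0.72 in null.

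Macrophage genes were higher in CLP in 7 of 9 compared, and limma called 3. Slc40a1, the iron exporter of macrophages, was at least 32.8-fold higher (at least 5.10, and 4.97), Marco, a scavenger receptor, went from -2.80 to 0.70 and from -0.16 to 2.71, and Clec4f, a lectin of Kupffer cells, was at least 8.1-fold higher. C1qa was not well above background on any array. Endothelial genes differed in both directions: Cdh5 (at least 4.89 and 3.45), Lyve1 (4.99 and 2.95) and Stab2 (4.03 and at least 3.17) were higher, and Emcn (-2.55 and at least -3.47) and Tek (-1.36 and at least -1.69) lower. Liver cell genes showed no common direction. Of their defining markers Apoa1 was not well above background on any array, and Afp was not well above background on either CLP array.

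Among dendritic cell genes 5 of 15 were higher in both pairs and 2 lower, led by Spib, Id2 and Clec9a (at least 2.99 and 2.74). Their median was 0.34, and -0.42 for members measured on all 4 arrays. Of 10 genes of class II presentation 4 were higher in both pairs: Cd74, H2-Eb1 (3.08 and 2.30), H2-Aa (2.50 and 2.23) and H2-Ab1 (1.74 and 1.31). The H2-Ob chain was lower (-2.77 and -1.05), and Ciita, the master regulator, did not pass in either pair.

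Cytokine receptors had no common direction. Of 19 progenitor receptors, 7 were higher in both pairs and 2 lower, with a median of 0.02 that turned below 0 when the 75th percentile was taken over detected probes (-0.05). Higher were the receptor of erythropoietin, Epor (3.84 and 2.73), the chain for granulocyte and macrophage factor Csf2ra (2.74 and 1.85), the receptor chains Csf2rb (1.75 and 1.72) and Csf2rb2 (2.61 and 1.95), Il5ra (at least 1.80, and 2.17), Il1rl1 and Il7r. Lower were Flt3 and Il2rg, the common chain that pairs with Il7r (-2.23 and -1.18). In the interleukin 7 pathway, Socs2 (-1.14 and -1.71) and Socs3 (at least -1.59, and -2.15), both inhibitors of cytokine signals, and Mycn (-3.86 and -3.12, called) were lower, and Ccnd3 (2.18 and 1.83) was higher. Stat5a, Stat5b and Jak1 did not pass in either pair. In homing genes, Cxcr4, the receptor for a chemokine of the marrow, differed by 1.05 and 1.23, and the integrin chain Itgb2 by 2.21 and 2.51.

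Interferon response genes were lower. Of 17 compared, 9 were lower in both pairs and none higher (median -1.43), with no limma call. Oasl2 went from 1.73 to -0.89 and from 1.41 to -1.74 (limma adjusted p = 0.0502), Rtp4 from 3.12 to -1.05 and from 2.16 to 0.18, and Ifitm3 from 7.24 to 5.24 and from 6.52 to 5.26. Ifit3 passed in opposite ways, and Isg15 (-0.56 and 0.12) did not pass in either pair.

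Of 34 genes of the cell cycle and DNA replication, 5 were higher in both pairs and none lower, while 28 were above 0 in both (median 0.55). The 5 were Rrm2 (2.42 and 1.93), Ccne1 (1.85 and 2.13), Ccnd3, Cdc6 (1.45 and 1.59, with the other probe at 2.10 and 0.26) and Tyms (1.36 and 1.24), and none was called. Among inhibitors of cyclin dependent kinases, Cdkn2c went from -3.63 to 1.65 and from -2.02 to 2.04, 25.6-fold higher with a limma adjusted p of 0.0486, while Cdkn1a (-2.24 and -2.15) and Cdkn1c (at least -2.89 and -2.08) were lower. By the brightest probe, all 30 ribosomal protein genes were below 0 in both pairs, with Rps7 the lowest in mean difference (-0.92), and none passed 2-fold in both. Other probes of Rps24 (-3.61 and -3.52), Rps15 (-1.21 and -1.34) and Rps6 (-1.38 and -1.05) were past 2-fold lower in both. The median of the ribosomal list, -0.56, stood beside -0.05 over all genes. As background for the counts above or below 0, 69.33% of the 11204 genes measured on all 4 arrays had the same sign in both pairs. The directions were not counted apart. Of 23 oxidative phosphorylation genes none passed 2-fold in either pair. Of 23 chromatin genes 5 were lower in both pairs and none higher: Satb1, Cbx2 (-2.10 and -2.73), Dnmt3b (-1.98 and -2.21), Cbx7 (-1.53 and -2.03) and Tet1 (-2.36 and -1.27). The other probe of Tet1 gave -1.24 and 0.11.

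The remaining lists are given by count, to be read beside 8.27% higher and 7.52% lower in both pairs over all genes compared. Of 9 E proteins, partners and Id inhibitors, 3 were higher (Id2, Id1 at 1.16 and 1.32, and Tal1) and none lower, while the E protein gene Tcf3 was at -1.18 and -0.69. In the Myc and Mxd network Mxd1, which opposes Myc, was higher (2.65 and 2.28) and Mycn lower, and Myc itself passed in neither pair (-0.69 and -0.89). That list's median was -0.31, and 0.01 in the null pair alone. Of 12 genes of the Bcl2 family, Bcl2a1d (3.04 and 1.91) and Pmaip1 (1.04 and 1.57) were higher and Bok (at least -3.02, and -1.80) lower. Bcl2a1d has near copies whose signal it may share. Of 16 glycolysis enzymes 1, the hexokinase Hk1 (1.36 and 1.09), was higher in both pairs. Of the 16, 10 were above 0 in both, a share that was not counted over all genes. Of 20 immediate early and heat shock genes 1, Nr4a1 (-1.36 and -1.39), was lower, and their median of -0.05 turned above 0 with median centring (0.16), quantile normalization (0.08) and normexp (0.01). Of 7 liver cell genes 1, Hnf4a (at least -4.72, and -1.18), was lower in both pairs and Alb passed in opposite ways. Of 18 homing genes 5 were higher in both pairs and 1, Cd34, was lower.

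**Figure D4:**
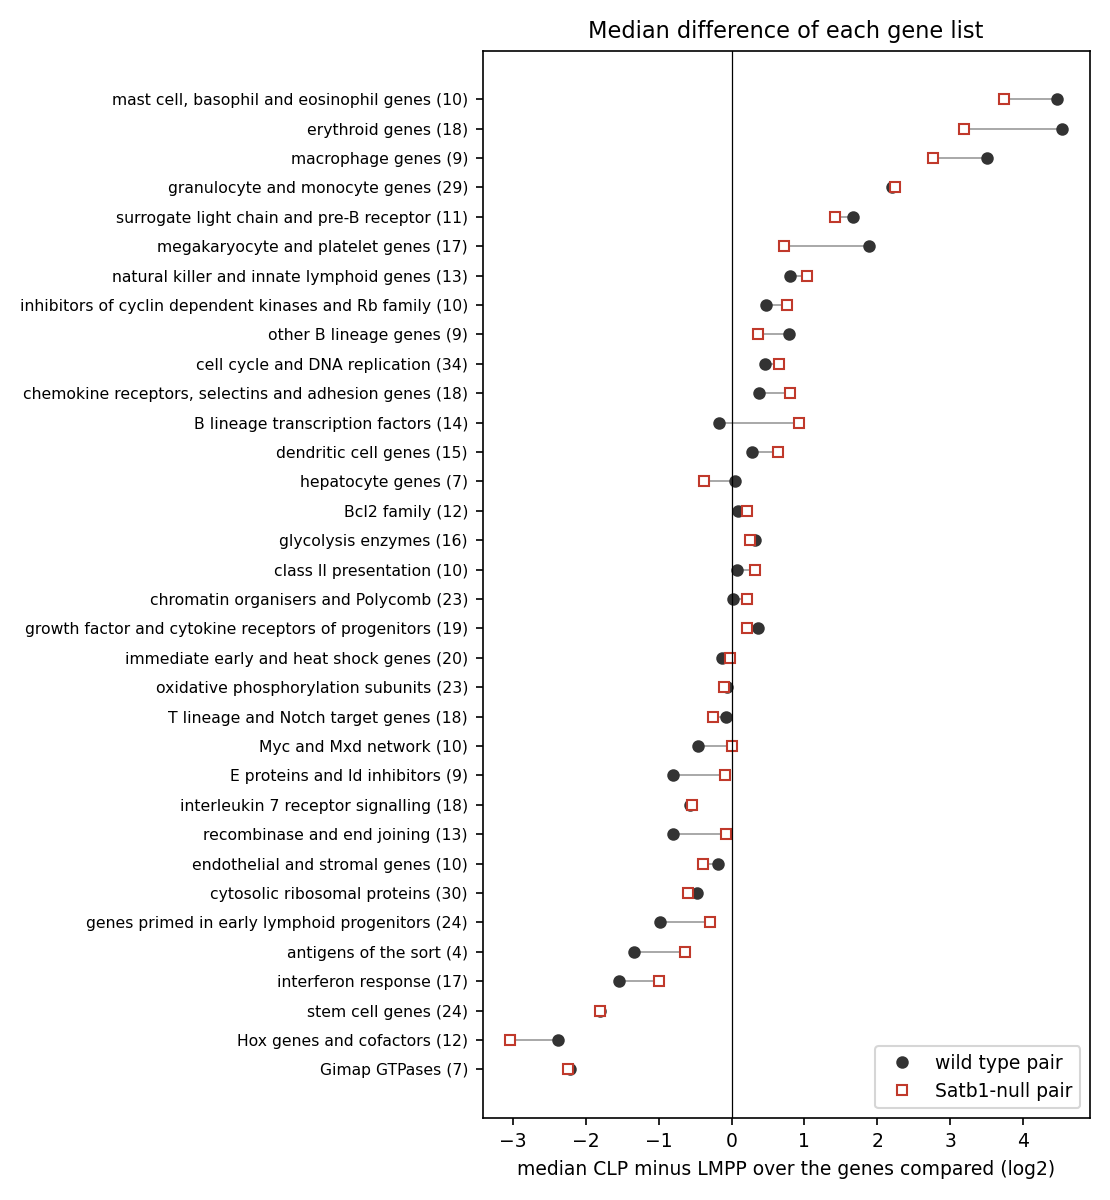
Median CLP minus LMPP (log2) of each gene list in the wild type pair (filled) and the Satb1-null pair (open), with the number of genes compared in brackets, ordered by the mean of both pairs. Mast cell, erythroid, macrophage and granulocyte lists lie at the top, and Gimap, Hox and stem cell lists at the bottom, on the same side of 0 in both pairs.

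Outside the lists, the high end of the mean differences among genes measured on all 4 arrays held Gda, guanine deaminase (7.59 and 5.07), Slc38a5, an amino acid transporter (5.70 and 5.49), Chil1 (5.89 and 4.91), Chil3, a chitinase-like protein of myeloid cells (5.79 and 4.80), and Ncam1, an adhesion molecule (5.99 and 4.55), beside Il1rl1, Epx, Ear6, Slc4a1, Alas2 and Prg3 above. At the other end, beside Hoxa9 and Gimap8, stood Prrg4 (-5.72 and -3.54, with another measured probe at -3.21 and -0.75), Ctla2b (-3.71 and -5.53), Adgrl4 (-4.09 and -4.82), Cd27, Cnrip1 (-3.81 and -4.94), Hhat (-4.26 and -4.37 on the probe used, against -0.58 and -0.61 on its second probe), Rps6ka6 (-5.55 and -3.06), Cox4i2 (-4.25 and -4.20) and Sh3d21 (-3.90 and -4.30). Among genes not well above background on either LMPP array, the largest bounds were those of Add2, the adducin of red cells (at least 70.3-fold), Il6 (at least 57.0-fold), Mgll (at least 46.7-fold), Abca13 (at least 45.2-fold), Fam83g (at least 44.1-fold) and Inpp5j (at least 43.7-fold). Among genes not well above background on either CLP array, the largest bounds were those of Cd274, the checkpoint ligand PD-L1 (at least 21.7-fold), Mc5r (at least 20.6-fold) and Zdhhc1 (at least 19.8-fold). Some of these were measured from the gene's own undetected signal, and their figure is not a strict minimum. They were Add2 in both pairs, Fam83g in wild type, and Mgll, Cd274 and Zdhhc1 in the null pair.

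The 4 arrays shared a slide and a scan. On it, LMPP occupied column 2 and CLP column 3 in both rows, so slide column and population cannot be told apart, while genotype and row differ between the pairs and not within them. The labels give 1 array per group, and the p-values of the fit measure only the spread between these arrays, which may be partly technical. Between 52.4% and 54.6% of spots were well above background on the 4 arrays, and between 12538 and 12998 genes. The number of arrays limits the precision.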

How the data were processed

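RNA of 6 samples was hybridised to 1-colour Agilent mouse arrays, and 4 of these are used here; per the labels' protocols, 6.1 ng of total RNA was amplified and labelled with Cy3. The deposited scanner files hold a linear intensity per spot, made with Agilent Feature Extraction 10.10.1.1 per the file headers (10.10 per the submitters' processing notes). The authors also deposited processed values, which equal the same intensity times a constant per array (5.71 to 8.77 over the 6 arrays); the basis of the constants is not known.

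From each array the 3671 control spots and 154 to 181 outlier spots were left out, intensities were turned to log2, and the array's 75th percentile was subtracted. Of 55681 probes, 27235 were named through RefSeq (GRCm38.p6), and the brightest probe stood for each gene. A difference whose dimmer side failed detection is a bound ("at least"), measured from the array's lowest detected signal or from the gene's own value if that was higher. In the latter case it is the difference of the measured values, 1 of them undetected, and not a strict minimum. Genes detected (well above background by the scanner software) on 2 or more arrays entered limma 3.58.1 (R 4.3.3; lmFit and eBayes, genotype as a block, Benjamini-Hochberg), with 1 residual and 2.84 prior degrees of freedom. Tested on simulated data with known changes, directions and sizes were recovered, but calls were not well calibrated: with gene variances drawn from the fit's moderated values the share of false calls exceeded the nominal level, and with variances drawn from the fit's prior the changed genes were not called.

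Named genes were the sort markers, the 12 highest and 12 lowest, the 6 largest bounds each way, the 6 largest opposite differences and, per list, up to 8 members past 2-fold in both pairs, up to 3 opposite and 3 bright ones past in neither; further list members and cell type markers were named after their values were seen. The 34 lists hold 539 genes, 534 of them with a named probe. Members and lists were chosen with earlier results of these data known. The planned normexp alternative used the median spot signal (offset 50), since the files hold no mean signal. Alternatives covered centring, background, probe and detection rules, thresholds, the fit and each left-out array. HSC arrays entered only the fits over 6 arrays. Some genes that the rule names are not reported here.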

Additional observations from a re-analysis of the deposited data

Results flagged for a closer look

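A total of 11 named genes passed 2-fold in opposite ways in the genotype pairs. With 1 array a group this could not be tested, and the gap is the wild type difference minus the null one. Measured on all 4 arrays with the largest gaps were Sh3d19 (5.54), Cnnm2 (5.17), Tle6 (5.05), Zcwpw1 (-4.68), Zkscan7 (-4.57) and Celsr1 (-4.48). Sh3d19, which encodes an adaptor with SH3 domains, stood at -2.99 and -0.62 on the wild type LMPP and CLP arrays and at -0.51 and -3.68 on the null ones. Among list members, the gap was 3.71 for Socs1, an inhibitor of cytokine signals, 3.57 for Zbtb46, a factor of dendritic cells, 4.71 for Gp6, the collagen receptor of platelets, 3.38 for Alb, serum albumin, and -3.29 for Ifit3. Of these 5, Ifit3 alone was measured on all 4 arrays, and the gaps of the others include a bound.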

How the results depend on the processing

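The counts of genes past 2-fold in both pairs (1064 higher, 967 lower) stayed within 1.5 times under the other centrings, quantile normalization, the authors' processed values, the mean over probes and no detection filter. Lower genes numbered 446 with normexp and 628 with detection on all 4 arrays. The 1.5-fold threshold gave 1829 and 1883 genes and the 3-fold threshold 603 and 434. The wild type pair alone gave 1994 and 2431, and the null pair alone 2001 and 1974. The limma calls (186 higher, 81 lower) depended on most settings. They became 281 and 163 with the percentile over detected probes, 192 and 46 with median centring, 854 and 584 with normexp, 446 and 287 with the mean over probes and 302 and 152 with detection on all 4 arrays. All 6 arrays in the fit gave 700 and 547, no genotype block 614 and 436, and an intensity trend 890 and 658. With quantile normalization limma called 0 and 0 (smallest adjusted p 0.0571, 3222 genes at an unadjusted p under 0.05). Leaving out 1 array in turn gave 0 to 941 higher and 0 to 991 lower. The cause of these shifts was not tested. Of 174 named genes past 2-fold in both pairs, 134 stayed past it under all 8 settings where they could be compared, none reversed, and 35 of the 40 others were lost with normexp. Those 35 include Ccr7, Ikzf3, Igll1, Vpreb2, Blnk, Esam, Gfi1b, Cdkn1c, Tyms and Xaf1. They also include Lax1, Bst1, Cd7, Socs2, Socs3, Il5ra, H2-Ob, Hnf4a, Tek, Id1, Bok and Pmaip1. Of these, Socs2, H2-Ob and Hnf4a were lost with median centring too. Outside the 35, Cxcr4 was lost with the percentile over detected probes, and Foxo1, Cdc6 and Tet1 with the mean over probes. No paired analysis by replicate number was possible because the labels carry none; the genotype block is the pairing used.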
